A study of Mus musculus with 8 samples.

Results

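The genes described here are those whose RNA signal differed at least 1.5-fold between CD69- T cells of early tolerant mice and CD69- T cells of naive mice, with a detection p-value under 0.01 on the brighter of the 2 arrays. Of 16593 genes with a symbol on the array, 6833 were detected on at least 1 of these arrays, and 101 of them met the rule. Of these 101 genes, 35 were higher and 66 were lower in early tolerant cells, which is 0.512% and 0.966% of the genes tested (1.48% together). Each side of the comparison was 1 array, so no test was possible, the spread between mice is unknown, and every difference below is a description of these arrays.

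All mice were male C57BL/6. The early tolerant group had received full-thickness tail skin of BDF1 mice (the offspring of C57BL/6 and DBA/2 parents) together with donor specific transfusion and MR-1, an antibody against CD40L, and its T cells were taken on day 21. The tolerant group had the same graft and treatment and was sampled on day 100. The rejecting group carried the graft with no tolerance treatment and was sampled on day 7, and the naive group was healthy and ungrafted. T cells of spleen and lymph node of each group were cultured for 20 to 21 h with bone-marrow dendritic cells of the donor strain and then sorted by CD69, so every group, naive included, had met donor cells in culture. There were 8 arrays, 1 for each of the 4 states in the CD69+ and CD69- fractions, and no source used here says how many mice went into an array. The early tolerant and naive mice differed in graft, transfusion and antibody together, and these cannot be told apart. The sort protocol in the labels names CD3+CD69+ for either fraction, and the sample titles were used to tell the fractions apart.

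CD69 is a membrane protein that T cells put on their surface within hours of antigen receptor signalling or exposure to type I interferon, and CD69- cells after a coculture are those without it at the time of the sort. Blocking CD40L on T cells withholds a signal that matures antigen-presenting cells, and its combination with donor cells is a standard way to prolong the life of a skin graft in mice. T cells also respond to what surrounds them in culture: interferons induce a shared antiviral programme through STAT proteins and IRF9, low oxygen stabilises HIF-1 alpha and with it glycolytic enzymes and glucose transporters, and receptor signalling induces early transcription factors such as FOS and EGR1.

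The 150 bases before the start sites of 4 lower interferon-response genes and 2 lower hypoxia-response genes are printed here (RefSeq, GRCm38.p6, 5′ to 3′ on the gene's strand). They show 2 of the motifs that were counted over all lower genes. Capitals mark the interferon-stimulated response element core (GAAA, any 2 bases, GAAA), on either strand, in the first 4, and ACGTG, the core of the hypoxia response element, in the last 2. In Isg15, 3 overlapping matches run together. The intervals are Ifit3 chr19:34583379-34583528 (plus strand), Isg15 chr4:156200819-156200968 (minus), Rsad2 chr12:26456453-26456602 (minus), Gbp2 chr3:142620513-142620662 (plus), Hilpda chr6:29272476-29272625 (plus) and Egln1 chr8:124949255-124949404 (minus).
Ifit3: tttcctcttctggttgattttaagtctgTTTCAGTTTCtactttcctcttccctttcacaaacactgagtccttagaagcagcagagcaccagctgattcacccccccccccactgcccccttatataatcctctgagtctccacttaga
Isg15: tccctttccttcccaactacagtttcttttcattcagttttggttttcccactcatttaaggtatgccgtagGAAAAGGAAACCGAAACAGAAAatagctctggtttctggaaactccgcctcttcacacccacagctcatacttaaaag
Rsad2: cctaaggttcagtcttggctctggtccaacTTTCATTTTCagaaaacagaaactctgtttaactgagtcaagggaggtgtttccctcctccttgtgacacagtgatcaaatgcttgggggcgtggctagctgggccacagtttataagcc
Gbp2: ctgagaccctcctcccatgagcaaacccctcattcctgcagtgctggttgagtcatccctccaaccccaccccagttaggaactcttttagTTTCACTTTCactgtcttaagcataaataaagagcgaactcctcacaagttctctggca
Hilpda: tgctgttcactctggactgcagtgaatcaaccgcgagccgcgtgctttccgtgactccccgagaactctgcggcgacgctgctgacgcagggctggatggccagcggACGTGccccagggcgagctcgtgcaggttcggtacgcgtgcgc
Egln1: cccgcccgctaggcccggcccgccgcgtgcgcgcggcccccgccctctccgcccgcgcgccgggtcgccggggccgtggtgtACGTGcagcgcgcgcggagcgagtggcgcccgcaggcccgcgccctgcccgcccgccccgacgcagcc

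Within the 250 bases before the start, the interferon core motif was found on either strand in 11 of the 49 lower genes that have a promoter in the RefSeq table (22.4%) and in 0 of 32 higher genes. It was found in 201 of 5665 promoters of all genes tested (3.55%). Of the 8 lower genes of the interferon list with a promoter, 6 held it (75.0%): Gbp2, Gbp3, Ifit3, Isg15, Rsad2 and Trim30a. Genes of the list that were not lower were not counted separately, so this share does not set the lower ones apart from the list. The other lower genes with a match were Cxcl10, Gbp5, Ncf1, Oas1g and Vegfa. The motif ACGTG, chosen after the differences had been seen, was present in 20 of 49 lower promoters (40.8%), in 6 of 32 higher promoters (18.8%) and in 1514 of 5665 promoters of genes tested (26.7%). A match is a stretch of letters and not evidence of a bound factor.

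The arrays themselves were alike in detection. On the early tolerant CD69- array 9667 of 25697 probes were detected (37.6%), and on the naive CD69- array 9672 (37.6%), within 9593 to 10308 over all 8 arrays. T cell identity was plain on both: 15 of 15 pan T cell genes were detected, with a summed signal of 166700 in early tolerant and 158130 in naive CD69- cells, while 1 of 11 B cell markers was detected on each. Signals here are on the deposited normalized scale, which keeps the optical background. The lowest detected signal was 156.3 on the early tolerant and 156.2 on the naive CD69- array, and folds of dim genes are understated near that level. The deposited values are quantile normalized, and the median of all genes tested was 0.02 on the log2 scale. With the arrays scaled to 1 median and no quantile step that median was -0.19 and the counts became 11 higher and 217 lower genes, a split of 4.82% to 95.2% in place of 34.7% to 65.3%. After background correction (neqc) they became 141 and 172, with all 101 genes among them. No gene of the 101 turned its direction in any setting.

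**Figure D1:**
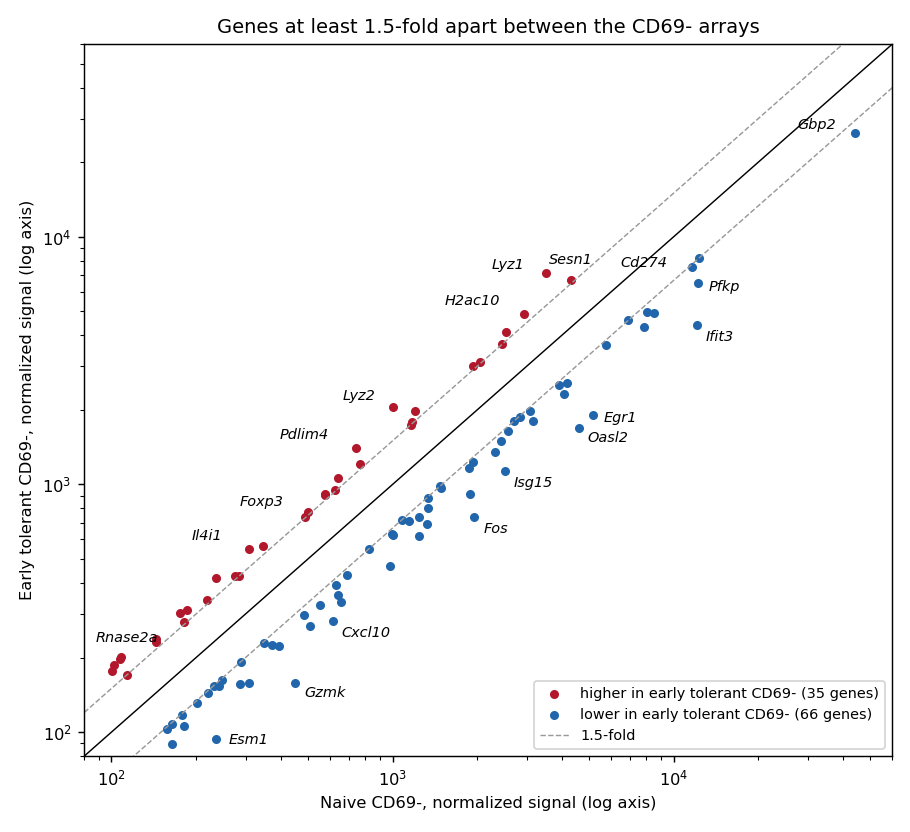
Normalized signal of the 101 genes in early tolerant CD69- cells (y axis, log scale) against naive CD69- cells (x axis, log scale), 1 array each. Red points are the 35 higher genes and blue points the 66 lower ones, the dashed lines mark 1.5-fold, and the points furthest below the diagonal are Gzmk, Ifit3, Egr1, Oasl2, Fos and Esm1.

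Most of the differences were small on the deposited scale, which keeps the background. Past 2-fold there were 2 higher genes, Lyz1 and Lyz2, and 11 lower genes, and past 2.5-fold there were 0 and 6. After background correction other higher genes passed 2-fold too, among them the dim gene Rnase2a at 3.47-fold, beside 2.13-fold for Lyz2. Esm1, also dim, was then 5.40-fold lower. The median log2 difference on the deposited scale was 0.68 for the higher genes and -0.70 for the lower ones, which the 1.5-fold rule largely sets. Just inside the rule lay Dapl1 (1.50-fold higher), Prl8a9 and Atp1b1 (1.51-fold), with Myo1f, H2ac15 and Ctsh just outside at 1.50-, 1.49- and 1.49-fold. Among lower genes Hilpda, Socs3 and Jak3 were just inside at 1.50-fold each, and Fam162a, Ifi27l2a and Crtc2 just outside. Where the dimmer array was not detected, only a bound can be given, against the lowest detected signal on that array. This applied to 7 higher genes, with bounds from 1.09-fold (Prl8a9) to 1.53-fold (Mzb1), and to 11 lower genes, from 1.01-fold (Dnase2b) to 1.84-fold (Ppp1r16b).

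Genes of the interferon response were lower in early tolerant CD69- cells. Of 27 genes of this list tested, 11 were at least 1.5-fold lower and 0 were higher, beside 0.966% lower among all genes tested, and 15 of the other 16 were below 0 without reaching 1.5-fold. With median scaling 18 were lower. The list's median was -0.52 on the log2 scale, beside 0.02 for all genes tested. Ifit2, which encodes another member of the IFIT family, stood apart with 1246 in early tolerant and 1227 in naive cells.

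Ifit3, an interferon-induced RNA-response protein, had a signal of 4415 in early tolerant, 3675 in tolerant, 13439 in rejecting and 12074 in naive CD69- cells. The tolerant and early tolerant arrays were low together and the rejecting and naive arrays high together. The early tolerant signal was 2.73-fold lower than the naive one (log2 -1.45), and the 2 dimmer Ifit3 probes gave -1.65 and -1.57. Its probes can share signal with the near-identical copy Ifit3b. Oasl2, of the oligoadenylate synthetase family, followed the same order, with 1692 in early tolerant, 1157 in tolerant, 4587 in rejecting and 4587 in naive cells (log2 -1.44). Isg15, the ubiquitin-like modifier, had 1136 in early tolerant, 1023 in tolerant, 2364 in rejecting and 2508 in naive cells (-1.14). Rsad2, which encodes the antiviral enzyme viperin, had 467, 463, 1114 and 983 in early tolerant, tolerant, rejecting and naive cells (-1.07).

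Regulators and effectors of the pathway showed the same split of the 4 CD69- arrays. Irf7, the transcription factor that amplifies type I interferon production, had 335 in early tolerant, 336 in tolerant, 611 in rejecting and 653 in naive cells (-0.96). The guanylate-binding protein Gbp2 was the brightest of the group, at 26246 in early tolerant, 12014 in tolerant, 39304 in rejecting and 44283 in naive cells (-0.76). Its tolerant signal was lower still than its early tolerant one. Gbp3 had 4325 in early tolerant, 2173 in tolerant, 6844 in rejecting and 7811 in naive cells (-0.85). Usp18, the protease that removes ISG15, had 1795, 1632, 3332 and 3167 in early tolerant, tolerant, rejecting and naive cells (-0.82). Rtp4, Trim30a and Oas2 completed the 11 at -0.82, -0.65 and, for Oas2, at least 1.55-fold lower, since it was not detected in early tolerant cells. Guanylate-binding and oligoadenylate synthetase genes have close paralogs that probes may not separate.

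Over the same 27 genes the tolerant cells differed from naive by a median of -0.89 on the log2 scale, and the rejecting cells by 0.00. These 3 comparisons share the naive array, so a high naive value would move all of them. In rejecting cells the 27 genes lay between -0.80 and 0.22 of their naive values. Other lower genes lay outside the list. Sp140, a nuclear body protein, had 692 in early tolerant, 663 in tolerant, 1700.0 in rejecting and 1324 in naive cells (-0.94). Dhx58 and Cmpk2, a sensor helicase of the RIG-I family and a mitochondrial nucleotide kinase, were at -0.84 and -0.68, and like Cd274 they were named after their values were seen. Cd274, which encodes the inhibitory ligand PD-L1, had 7525 in early tolerant, 3026 in tolerant, 8272 in rejecting and 11640.2 in naive cells (-0.63). Socs3, an inhibitor of cytokine receptor signalling, had 8181, 7377, 12945 and 12284 in early tolerant, tolerant, rejecting and naive cells (-0.59), and Jak3, a kinase of common gamma chain receptors, had 985, 887, 954 and 1480.1 (-0.59). Jak3 was low in rejecting cells too. Wars, Gbp5, Oas1g, Trafd1 and Plac8, named after their values were seen, were also lower, at -0.70, -0.78, -0.68, -0.65 and -0.79.

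Genes of glycolysis and the low-oxygen response were lower as well. Of 16 tested, 5 were at least 1.5-fold lower, 0 were higher, and 10 of the other 11 lay below 0, with a median of -0.43 on the log2 scale. The count was 2 with each gene's probes averaged and 13 with median scaling. Pfkp, a phosphofructokinase, had 6484 in early tolerant, 10949 in tolerant, 3235 in rejecting and 12203 in naive CD69- cells, 1.88-fold lower than naive (log2 -0.91) by its brightest probe. Its other detected probe gave -0.42 and the mean of all its probes -0.46, both within 1.5-fold. Egln3, an oxygen-dependent hydroxylase that marks HIF alpha for degradation and is itself a HIF target, had 918, 1810.3, 516 and 1889 in early tolerant, tolerant, rejecting and naive cells (-1.04). Both genes had their lowest signal in rejecting cells, with tolerant cells close to naive.

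Rejecting cells were also the lowest, and early tolerant cells the next lowest, for Slc2a3, Vegfa and Hilpda, with tolerant cells above naive ones. Over the 16 genes of the list tested, tolerant CD69- cells were above naive ones in 8 and below in 8. Slc2a3, the glucose transporter GLUT3, had 4948 in early tolerant, 8697 in tolerant, 3436 in rejecting and 8046 in naive cells (-0.70). Vegfa, the angiogenic growth factor, had 629 in early tolerant, 1104 in tolerant, 147 in rejecting and 999 in naive cells (-0.67). Hilpda, a lipid droplet protein outside the list, had 4594, 9163, 1568 and 6892 in early tolerant, tolerant, rejecting and naive cells (-0.58). Pgk1 (phosphoglycerate kinase) was read by a dim probe and was at least 1.29-fold lower. Other enzymes of the list lay within 1.5-fold: Gapdh had 33655 in early tolerant and 42625 in naive cells (-0.34), and Ldha, lactate dehydrogenase A, had 20265 and 23173 (-0.19).

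Over the 16 genes the median was 0.00 for tolerant against naive cells and -1.34 for rejecting against naive cells, with 16 of 16 below 0 in the rejecting cells, again with the naive array in common. Other lower genes outside the list were named after their values were seen. Egln1, the main HIF hydroxylase, had 885 in early tolerant, 1344 in tolerant, 391 in rejecting and 1336 in naive cells (-0.59). Mgarp, a mitochondrial protein, had 2324, 3642, 1074 and 4079 in early tolerant, tolerant, rejecting and naive cells (-0.81). Ndrg1, Ak4 and B3gnt3, a stress-response protein, an adenylate kinase and a glycosyltransferase, were at -0.59, -0.71 and -0.59. Eno1b, at -0.59, is a near copy of the enolase gene Eno1, and the array cannot be taken to separate them. On the CD69- arrays the interferon genes were thus low in both tolerant stages, and the glycolysis and hypoxia genes in early tolerant and rejecting cells. On the CD69+ arrays the interferon medians were likewise below 0 in both tolerant stages and near 0 in rejecting cells. The glycolysis and hypoxia medians there did not follow the CD69- split, being below 0 in both tolerant stages and not in rejecting cells. There the medians against naive CD69+ cells were -0.34 in early tolerant, -0.21 in tolerant and 0.02 in rejecting cells for the interferon genes, and -0.37, -0.22 and 0.09 in early tolerant, tolerant and rejecting cells for the glycolysis and hypoxia genes. No test of these differences was possible.

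**Figure D2:**
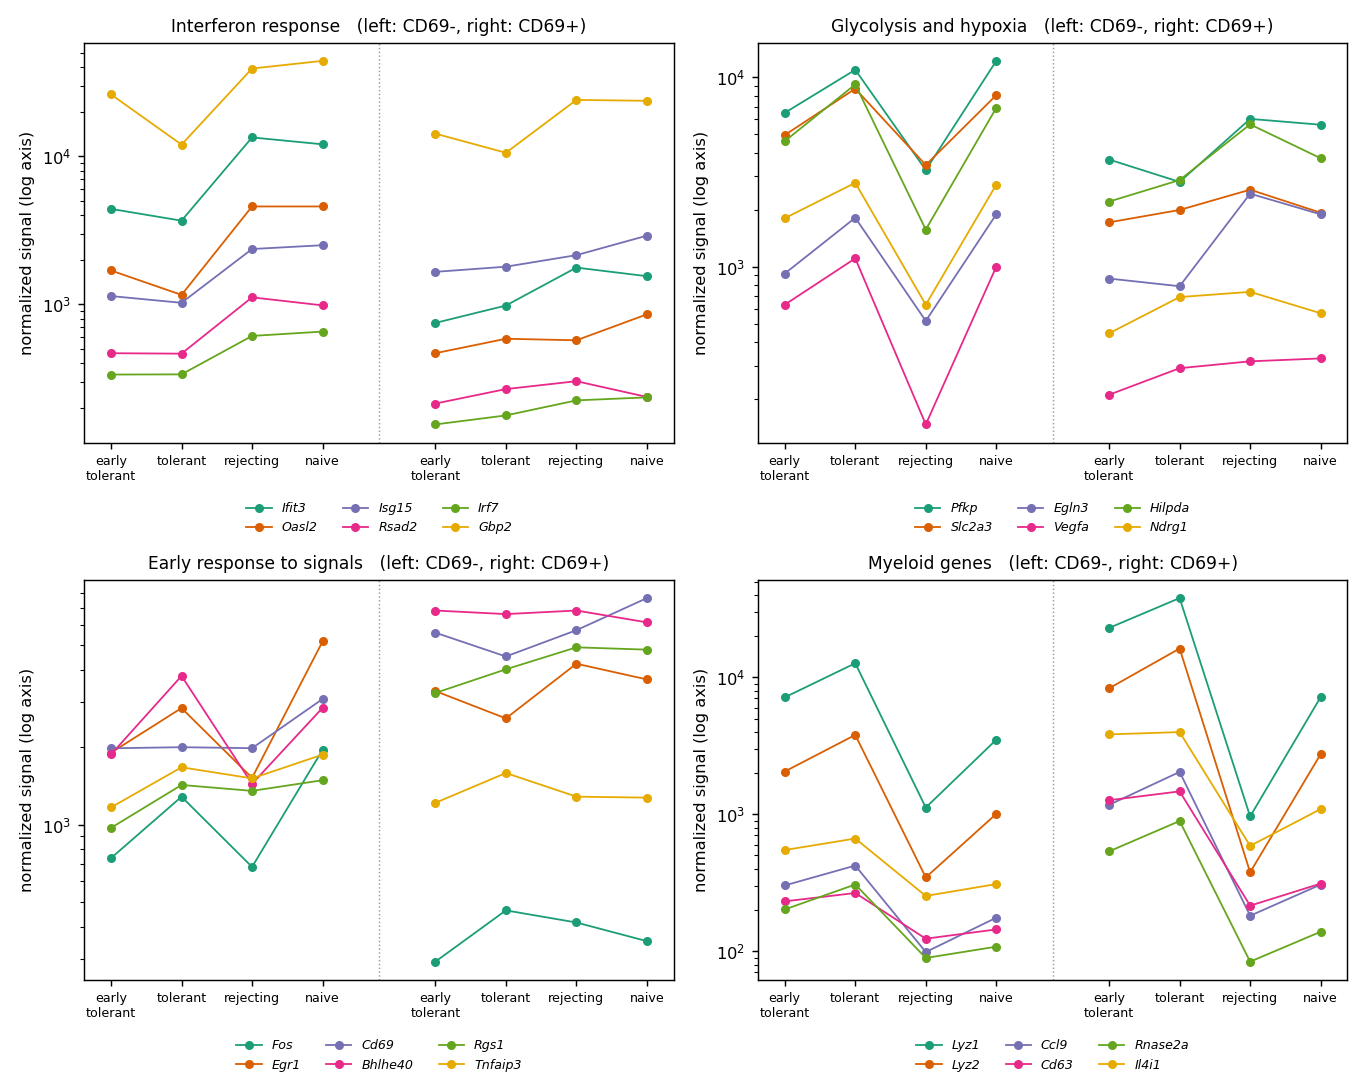
Normalized signal (log axis) of 6 genes of each of 4 groups, 1 point per array, with early tolerant, tolerant, rejecting and naive cells side by side, CD69- arrays left and CD69+ arrays right of the dotted line. Interferon genes such as Ifit3 (4415 in early tolerant, 12074 in naive cells) were low in both tolerant stages of the CD69- fraction. Within that fraction, glycolysis and hypoxia genes such as Vegfa (629 and 999) had their lowest point in rejecting cells. The lines only join a gene's points.

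Early-response genes held some of the largest differences. Fos, a subunit of the AP-1 transcription factor, had 740.2 in early tolerant, 1283 in tolerant, 684 in rejecting and 1954 in naive CD69- cells, 2.64-fold lower than naive. Egr1, a zinc-finger transcription factor induced by receptor signalling, had 1905, 2842, 1520.4 and 5164 in early tolerant, tolerant, rejecting and naive cells, 2.71-fold lower. The naive array was the highest of the 4 for both genes. Fos was the only member of the immediate early list past 1.5-fold among 11 tested. The median of that list was -0.34, with 9 genes below 0 and 2 above. Jun, Junb and Dusp1 lay between -0.55 and -0.52, and Ier3 was at 0.47. With median scaling 5 genes of the list were past 1.5-fold.

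Cd69 itself was among the lower genes, although both samples were sorted as lacking the protein. It had 1982 in early tolerant, 2001 in tolerant, 1984 in rejecting and 3083 in naive CD69- cells, 1.56-fold lower than naive. The CD69- signals were below every CD69+ signal, which were 5589.6 in early tolerant, 4515 in tolerant, 5714 in rejecting and 7622 in naive cells. Of 17 genes of the T cell activation list, 3 were lower and 0 higher: Egr1, Cd69 and Bhlhe40, a transcriptional repressor, at 1875 in early tolerant, 3791 in tolerant, 1440.2 in rejecting and 2848 in naive cells (-0.60). Tnfaip3, the A20 inhibitor of NF-kB, had 1166 in early tolerant, 1671 in tolerant, 1513 in rejecting and 1872 in naive cells (-0.68), and it was 1 of 15 NF-kB genes past the rule. Nrn1, which encodes the membrane-anchored protein neuritin, had 618, 1689.9, 1051 and 1241 in early tolerant, tolerant, rejecting and naive cells (-1.01). Per1 (a clock gene) and Rgs1 (a regulator of G protein signalling), named after their values were seen, were at -0.69 and -0.62.

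Of 9 cytotoxic genes tested, 1 was lower and 0 were higher. Gzmk, granzyme K of cytotoxic granules, had the largest difference on the deposited scale. It had 158 in early tolerant, 368 in tolerant, 374 in rejecting and 450.4 in naive CD69- cells, 2.85-fold lower (log2 -1.51), and after background correction 4.69-fold. The early tolerant signal lay just above the lowest detected level. Cxcl10, a chemokine that attracts CXCR3-bearing cells, had 281 in early tolerant, 207 in tolerant, 306 in rejecting and 612 in naive cells (-1.12). Esm1, a secreted proteoglycan, had 93.9, 181, 311 and 236 in early tolerant, tolerant, rejecting and naive cells, was not detected in early tolerant cells and was at least 1.51-fold lower.

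Ifng, the type II interferon gene, had 107 in early tolerant, 121 in tolerant, 738 in rejecting and 164 in naive CD69- cells. Its signal was not above the detection limit in early tolerant cells and barely so in naive cells, so the difference is bounded only at 1.05-fold or more. In the CD69+ fraction it had 919 in early tolerant, 430.3 in tolerant, 19248 in rejecting and 2975 in naive cells (-1.69). Of 9 effector cytokine and chemokine genes tested in CD69- cells it was the 1 past 1.5-fold. The cytokine receptor chain Il12rb2 and the chemokine Cxcl9, named after their values were seen, were at least 1.05-fold and 1.16-fold lower. Ccrl2, a receptor that binds chemerin, had 157 in early tolerant, 209 in tolerant, 209.5 in rejecting and 309 in naive cells (-0.97). Casp4, an inflammatory caspase, had 269, 489, 525 and 510.2 in early tolerant, tolerant, rejecting and naive cells (-0.93). The early tolerant array was alone at the low end. The other detected Casp4 probe gave -0.46 and the mean of all its probes -0.54, both within 1.5-fold. Casp1, its relative, was at -0.73 and was named after its values were seen. Ppp1r16b, a phosphatase regulatory subunit, was not detected in early tolerant cells and was at least 1.84-fold lower.

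On the deposited scale the furthest higher genes were Lyz2 and Lyz1, followed by Pdlim4. Lyz1 and Lyz2, lysozymes of macrophages and dendritic cells, are near-identical, and their probes may read each other's RNA. Lyz1 had 7134 in early tolerant, 12656 in tolerant, 1119 in rejecting and 3501 in naive CD69- cells, 2.04-fold higher than naive (log2 1.03). Lyz2 had 2052, 3794, 346 and 1006 in early tolerant, tolerant, rejecting and naive cells (1.03). The order of the arrays was tolerant, early tolerant, naive, rejecting in both. Ccl9, a chemokine of myeloid cells, had 302 in early tolerant, 422 in tolerant, 98.7 in rejecting and 176 in naive cells (0.78). Cd63, a tetraspanin of lysosomes, was not detected in naive cells by its brightest probe and was at least 1.48-fold higher by it. Its dimmer probes were at 0.355 and 0.121, and the latter had 164 in naive cells, above the lowest detected signal. The mean of its probes gave 0.39, within 1.5-fold. Il4i1, an amino acid oxidase that antigen-presenting cells secrete, had 548 in early tolerant, 665 in tolerant, 253 in rejecting and 309 in naive cells (0.82). Rnase2a, a ribonuclease of the eosinophil family, was at least 1.29-fold higher, and Prg2, an eosinophil granule protein, at least 1.13-fold.

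The levels of dendritic and myeloid markers as a list stand beside these genes. Of 23 markers tested 4 were past 1.5-fold higher, 0 lower, and 13 more lay above 0, with a median of 0.32 on the log2 scale. The 4 became 11 after background correction and 1 with each gene's probes averaged. Of 34 markers on the array, 23 were detected in early tolerant, 22 in tolerant, 16 in rejecting and 20 in naive CD69- cells. Their summed signal was 32130 in early tolerant, 43889 in tolerant, 25270 in rejecting and 28991 in naive CD69- cells, in the same order as Lyz1. Without Lyz1 and Lyz2 it was 22945 in early tolerant, 27439 in tolerant, 23805 in rejecting and 24484 in naive CD69- cells, so the early tolerant sum was then not above the naive one. Bright genes weigh most in such a sum. The marker H2-DMa had 5331 in early tolerant and 7859 in naive CD69- cells (-0.56), a wider gap than between these sums. By gene, 17 of the 23 markers tested lay above 0 and 6 below. In CD69+ cells the summed signal was 90690 in early tolerant and 44651 in naive cells, and the median of the same 23 genes was 1.33. The markers did not move as a block in CD69- cells: H2-Ea, an MHC class II chain that C57BL/6 mice do not express and the DBA/2 side of the donor does, had 214 in early tolerant and 277 in naive cells (-0.37). In CD69+ cells it had 2924 in early tolerant and 936 in naive cells. Cd74, the class II invariant chain, had 800.3 in early tolerant and 820.1 in naive CD69- cells (-0.04). Itgax and Cd14, the markers CD11c and CD14, were not detected on either array. In RNA of sorted cells, more cells of a type and more RNA per cell cannot be told apart, and the part of dendritic or myeloid RNA in the higher genes was not tested.

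Genes of regulatory T cells gave a mixed picture. Of 17 tested, 2 were higher and 0 lower, with a median of -0.02, and with median scaling 0 of the 17 were past the rule. Gpr83, an orphan receptor abundant in regulatory T cells, had 1213 in early tolerant, 1303 in tolerant, 1276 in rejecting and 768 in naive CD69- cells, 1.58-fold higher. The naive array was the low one and the grafted groups were alike. Foxp3, their defining transcription factor, had 737 in early tolerant, 852 in tolerant, 687 in rejecting and 487 in naive cells, 1.51-fold higher by its brightest probe, while its 2 dimmer probes were at 0.33 and -0.04. With each gene's probes averaged, Foxp3 was therefore within 1.5-fold. In CD69+ cells the brightest Foxp3 probe had 4367 in early tolerant and 3659 in naive cells (0.26). Ctla4, Ikzf2 and Il2ra, other genes of these cells, were at -0.14, -0.05 and 0.30 in CD69- cells. Ccr6, a chemokine receptor of Th17, B and some regulatory cells, had 418 in early tolerant, 549.5 in tolerant, 302 in rejecting and 236 in naive CD69- cells (0.82).

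Several higher genes, Pdlim4, Acoxl, H2-Ob, Sesn1 and Dapl1 among them, had a brighter signal in early tolerant CD69- cells than on any CD69+ array. Pdlim4, a cytoskeletal adaptor, had the largest difference after the lysozymes on the deposited scale, with 1397 in early tolerant, 1039.5 in tolerant, 523 in rejecting and 739 in naive CD69- cells, 1.89-fold higher. Acoxl, an acyl-CoA oxidase-like gene, had 1064 in early tolerant, 830.4 in tolerant, 471 in rejecting and 638 in naive cells (0.74), and H2-Ob, the beta chain of the class II modulator DO, had 1971, 1696, 1102 and 1199 in early tolerant, tolerant, rejecting and naive cells (0.72). In these 3 genes the early tolerant array was the highest of the 4. Sesn1, a p53 target that restrains mTORC1, had 6658 in early tolerant, 6326 in tolerant, 4555 in rejecting and 4313 in naive cells (0.63). Dapl1, a gene of resting T cells, had 1739.7, 1728, 1106 and 1159 in early tolerant, tolerant, rejecting and naive cells (0.59). It was the 1 gene of 20 naive and resting T cell genes tested that passed the rule, and the list's median was 0.02. S100a6, a calcium-binding protein, was at 0.67 and Tmem176b, a membrane protein, at 0.71, both brighter in CD69+ cells. Scg5, a secretory granule chaperone, was at 0.74. Mreg and Myl1, melanoregulin and a myosin light chain, were at least 1.20-fold and 1.27-fold higher.

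Of the 35 higher genes, early tolerant cells had the highest of the 4 CD69- signals in 17 and naive cells the lowest in 19, with both in 9. Over all 3643 genes tested with early tolerant above naive, these counts were 1646, 1790 and 523. Among the 66 lower genes, early tolerant cells had the lowest signal in 27 and naive cells the highest in 40, with both in 18 (27.3%). Over all 3175 genes tested with early tolerant below naive they were 1416, 1381 and 350. Genes chosen for a wide gap between these arrays lie at both ends more often by construction.

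The CD69+ fraction shows which of the 101 differences were found in CD69- cells alone. In CD69+ cells 7206 genes were tested and 194 were at least 1.5-fold higher in early tolerant than in naive cells (2.69%) and 76 lower (1.05%). Of the 101 genes, 26 were past 1.5-fold in the same direction there, which is 25.7% of the 101 and 9.63% of the 270 genes called in either direction in CD69+ cells (3.75% of those tested). A further 74 (73.3%) were within 1.5-fold in CD69+ cells, 25 of them higher and 49 lower in CD69- cells, and 8 of the 74 were not detected in CD69+ cells. Among genes tested that did not meet the rule in CD69- cells, 97.52% were within 1.5-fold. Being within 1.5-fold in the other fraction is a matter of size only, and no difference between fractions could be tested.

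The 10 higher genes shared by both fractions were Lyz1, Lyz2, Rnase2a, Il4i1, Ccr6, Ccl9, Mzb1, Cd63, Arap3 and Sesn1. For the myeloid ones the difference in CD69+ cells was the larger: Lyz1 had 22912 in early tolerant and 7169 in naive CD69+ cells (1.68, against 1.03 in CD69- cells), and Cd63 had 1266 and 312 (2.02). Lower in both fractions were 16 genes, among them Gzmk, Ifit3, Oasl2, Isg15, Irf7, Gbp2, Gbp5, Egln3, Pfkp, Vegfa, Hilpda and Ifng. Ifit3 had 748 in early tolerant and 1548 in naive CD69+ cells (-1.05), and Egln3 had 864 and 1887 (-1.13). Over the same 27 interferon genes the median was -0.34 in CD69+ cells, and of the 25 genes of the list tested there 6 were lower. Over the 16 glycolysis and hypoxia genes it was -0.37, with 5 lower. Lower values of both groups were thus seen in CD69+ as in CD69- cells.

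**Figure D3:**
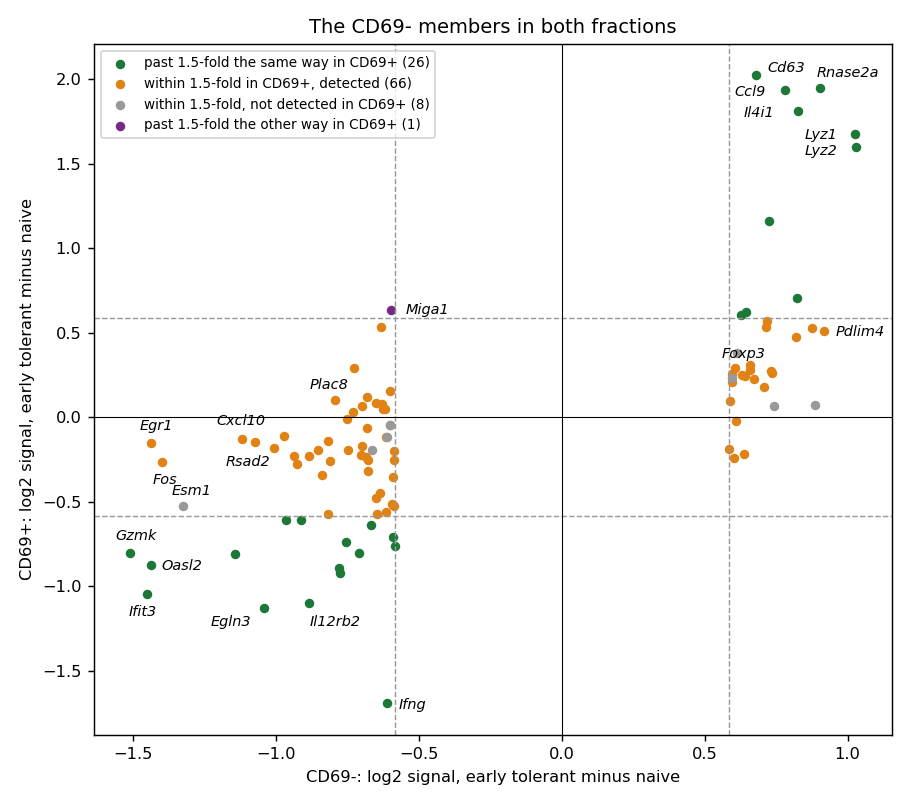
Log2 difference of early tolerant minus naive cells for the 101 genes in CD69+ cells (y axis) against CD69- cells (x axis), 1 array per state and fraction. Dashed lines mark 1.5-fold; green points (26) passed it the same way in both fractions, orange (66) and grey (8) points were within it in CD69+ cells, and the purple point, Miga1, lay past it the other way by its measured signals, 2 of which were below detection.

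Of the 74 genes within 1.5-fold in CD69+ cells, 31 also differed between the fractions by at least 1.5-fold in the size of the change, 6 of them higher and 25 lower. At the head of the lower ones were Egr1 and Fos. Egr1 had 3310.0 in early tolerant and 3675 in naive CD69+ cells (-0.15, against -1.44 in CD69- cells), and Fos had 292 and 351 (-0.27, against -1.40). Cxcl10 had 880.5 in early tolerant and 964 in naive CD69+ cells (-0.13), Rsad2 had 213 and 236 (-0.15) and Nrn1 had 1966 and 2229 (-0.18). Rsad2 was thus close to naive in CD69+ cells, where its signal is dim on every array. Plac8, a small cysteine-rich protein of leukocytes, was at -0.79 in CD69- cells and 0.10 in CD69+ cells, and Cd274 at -0.63 and 0.08. Bhlhe40 was at -0.60 and 0.15, with 6818 in early tolerant and 6130.5 in naive CD69+ cells. Among the higher genes of this kind, Dapl1 was at 0.59 in CD69- and -0.19 in CD69+ cells, and Tec, Ddr1 and Bbs9, a Tec-family kinase, a collagen receptor and a cilia gene named after their values were seen, were at 0.60, 0.64 and 0.61 in CD69- cells and at -0.24, -0.22 and -0.02 in CD69+ cells. Myl1 and Scg5 were not detected in CD69+ cells. After background correction 66 of the 74 genes were still within 1.5-fold in CD69+ cells, and 8 were past it in the direction seen in CD69- cells: Usp18, Trim30a, Egln1, Nampt, Camk2b, H2-Ob, Prg2 and Mreg.

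**Figure D4:**
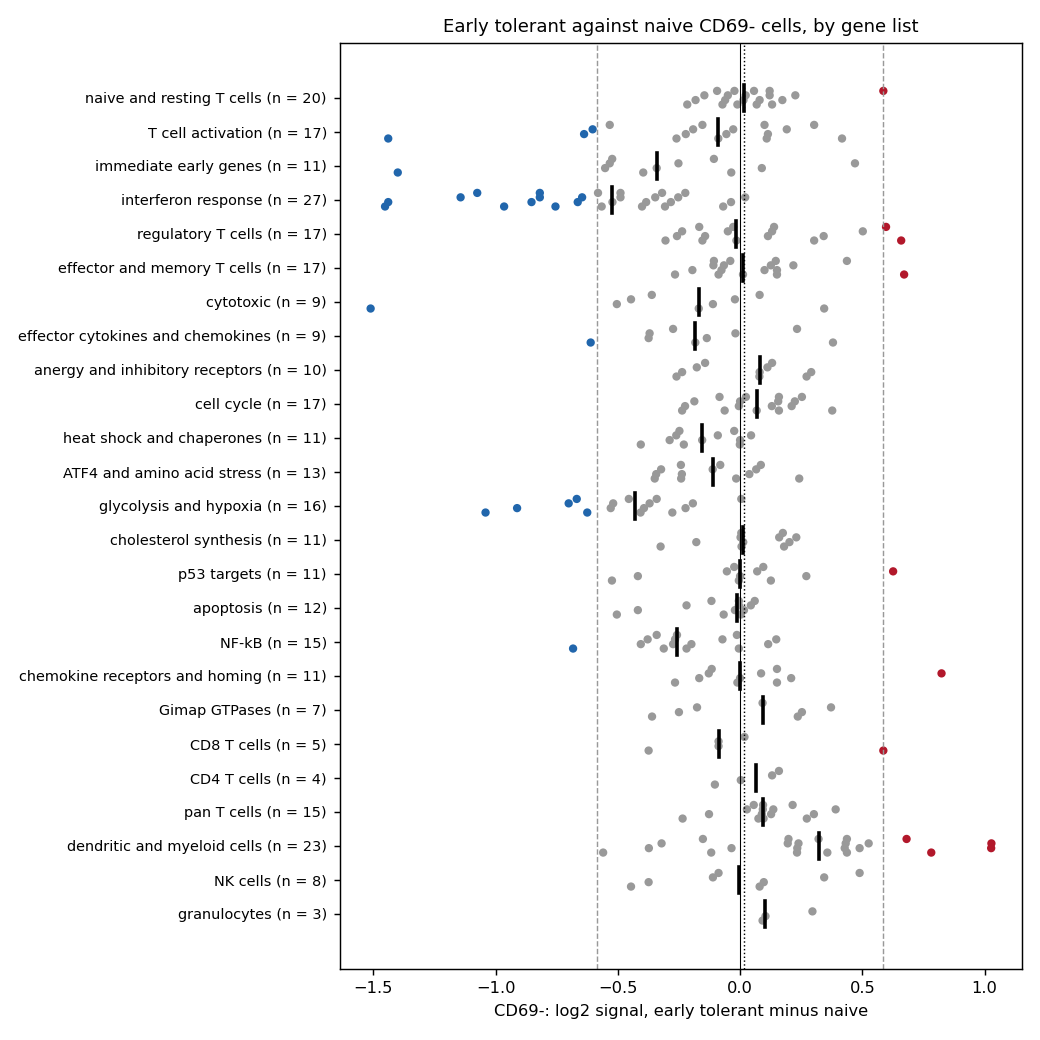
Log2 difference of early tolerant minus naive CD69- cells (x axis) for each gene tested of each list with at least 3 such genes (rows), 1 array a side; blue and red points are past 1.5-fold (dashed lines), black bars are list medians and the dotted line is the median of all genes tested (0.02). The interferon list (27 genes, median -0.52) and the glycolysis and hypoxia list (16 genes, -0.43) lie furthest to the left, and the dendritic and myeloid list (23 genes, 0.32) furthest to the right.

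Other gene groups showed few or no genes past the rule. None of 15 pan T cell genes, 17 cell cycle genes, 11 heat shock genes or 8 NK cell marker genes passed it, nor did any of 3 granulocyte genes, 10 anergy and inhibitory receptor genes, 13 ATF4 targets, 11 cholesterol synthesis genes, 12 apoptosis genes, 7 Gimap genes, 4 CD4 T cell genes or the 1 B cell and 1 erythroid gene tested. The p53 targets (11 tested), chemokine receptors (11), effector and memory genes (17) and CD8 T cell genes (5) had 1 higher gene each, Sesn1, Ccr6, S100a6 and Dapl1 in that order. The pan T cell median was 0.09, and -0.16 with median scaling, where the median of all genes was -0.19. For 24 of the 101 genes other probes were detected, 33 probes in all. Of these, 32 had the sign of the brightest probe and 17 were also past 1.5-fold, the exception in sign being a Foxp3 probe. Members not named above and chosen after their values were seen were Alkbh5, Arrdc4, Ncf1, Pa2g4, Nuak2, Pcgf5, Insl6, Rragd and Phf21a at -0.75 to -0.60, Ikbip and Bmp7, at least 1.42-fold and 1.14-fold lower, and Cdc25b, Tsc22d1, Irak3 and Arap3 at 0.60 to 0.65.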

How the data were processed

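RNA of CD69+ and CD69- T cells from 4 states (naive, rejecting, early tolerant, tolerant) was hybridised to 8 Illumina MouseRef-8 arrays, 1 per group. BeadStudio 3.1.3 is named in the submitters' processing notes. The deposited series matrix holds linear intensity values. All 8 columns follow 1 distribution to within 0.0355%, as after quantile normalization with no background subtraction, which was found from the values and is stated in no header. A deposited table of non-normalized intensity values with a detection p-value per probe prints identifiers out of register with its values. By the order of values on all 8 arrays 25697 of 25697 probes matched 1 series matrix probe each, and 20106 (78.2%) carried another identifier. With the series matrix identifiers Cd3d averaged 24580 and Alb 80.2, and with the printed ones 790.2 and 3119. Detection p-values were moved through this match.

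Symbols came from the platform table, updated by Entrez identifier: 23978 probes had 1 symbol, 0 had several and 1719 had none. A gene was represented by its probe brightest on average over 8 arrays. A gene was tested where its detection p-value was under 0.01 on the brighter array. Folds are ratios of the deposited intensity values, and log2 differences are of the same values. Bounds use the lowest detected signal on the dimmer array. The 27 gene lists and the members were chosen with earlier results of these data known. Named genes were the 15 furthest each way, the 10 furthest each way within 1.5-fold in CD69+ cells, up to 4 per list, the 3 nearest the threshold on each side, and Cd69, Foxp3, Ifng and H2-Ea, which gave 51 of the 101. The other 50 were named after their values were seen. Alternatives were neqc (limma 3.58.1, offset 16, R 4.3.3), median scaling, detection p-values under 0.05, under 0.01 in both arrays or unfiltered, the mean of a gene's probes, and centred median scaling, the last chosen after seeing the data. The matching and the rule were tested on simulated data. Python 3.11.15, numpy 2.4.6 and pandas 2.3.3 were used. Promoters came from RefSeq on GRCm38.p6. The number of arrays limits the precision.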

Additional observations from a re-analysis of the deposited data

Results flagged for a closer look

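Miga1, which encodes a mitochondrial protein, was the 1 gene of the 101 whose measured signals were 1.5-fold apart in opposite directions in the 2 fractions. By these signals its log2 difference of early tolerant minus naive cells was -0.598 in CD69- cells and 0.632 in CD69+ cells. Its signal was 153 in early tolerant and 231 in naive CD69- cells, and 215 in early tolerant and 138 in naive CD69+ cells. The dimmer array of each pair was below detection, so only bounds hold: at least 1.48-fold lower in CD69- cells and at least 1.44-fold higher in CD69+ cells, neither of them past 1.5-fold. The difference was not tested.

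Probes with no gene symbol lay outside the description by gene. Of 1719 such probes 579 were detected in CD69- cells, and 5 were at least 1.5-fold higher and 6 at least 1.5-fold lower in early tolerant cells, beside 44 and 93 of the 9968 probes of all kinds detected there.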

How the results depend on the processing

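The main counts were 35 higher, 66 lower and 74 within 1.5-fold in CD69+ cells. Background correction with neqc gave 141, 172 and 236. Median scaling without quantile normalization gave 11, 217 and 147, with the median of all genes tested at -0.19. The same scaling centred on that median, chosen after seeing the data, gave 34, 69 and 73, with 28 and 55 of the main genes shared. Detection p-values under 0.05, under 0.01 in both arrays and unfiltered gave 37 and 69, 28 and 55, and 38 and 70 higher and lower genes. The mean of a gene's probes gave 26 and 52. Asking in place of this for a CD69- difference at least 1.5-fold larger than the CD69+ one gave 33 of the 101 genes, 31 of them among the 74. None of the 101 genes turned its sign in these settings. Where a count differed the cause was not tested. By construction neqc removes background, and the stricter detection filter tests fewer genes.

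No paired analysis was possible because each group was 1 array and the labels give no replicate numbers. Leaving out a replicate and taking slide or scan as a block could not be run for the same reason. Signal over background limits the dim genes, of which 7 higher and 11 lower were not detected on their dimmer array.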

Other observations

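Genes of the H2A core histones, grouped after their values were seen, were higher in early tolerant CD69- cells. All 10 tested lay above 0, between 0.16 and 0.73 on the log2 scale, with a median of 0.52, beside 0.02 for all genes tested. With median scaling 9 of the 10 lay above 0, with a median of 0.31 where all genes tested had -0.19. H2ac10 had 4896 in early tolerant, 5861 in tolerant, 4034 in rejecting and 2946 in naive CD69- cells (0.73), and H2ac7 had 4118, 4455, 3223 and 2525 in early tolerant, tolerant, rejecting and naive cells (0.71). H2ac12 and H2ac22 were the other members past 1.5-fold, at 0.64 and 0.61. The naive array was the lowest of the 4 in each. The medians of the 10 genes were 0.75 for tolerant and 0.31 for rejecting against the same naive array, and 0.25 for early tolerant against naive in CD69+ cells, where H2ac10 had 20826 in early tolerant and 17262 in naive cells. The genes are near-identical copies, so their probes may read the same RNA and are not separate measurements. None of 17 cell cycle genes passed 1.5-fold in CD69- cells, with a median of 0.07.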
